A study of Mus musculus with 6 samples.

Results

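The calcium handling genes of the sarcoplasmic reticulum described here are 10 of the 56748 genes in the count table: Ryr2, Jph2, Trdn, Asph, Casq2, Hrc, Atp2a2, Pln, Slc8a1 and Camk2d. They were chosen by gene name for their role in the calcium cycle of the cardiomyocyte, with earlier results of these data known. All 10 had enough counts to be tested, among 13888 tested genes. The libraries came from heart tissue of male mice on a C57Bl/6 background, aged 10 weeks when the infusion began. Pontin cTG mice (n = 3) carried human Pontin cDNA with a flag tag, driven by the αMHC promoter of the mouse and hence in cardiomyocytes, while WT mice (n = 3) were littermates lacking the transgene. Both groups had received angiotensin II at 1.5 mg/kg BW/day from mini-osmotic pumps for 14 days, so each comparison is between genotypes under this hypertensive stimulus, and hearts without angiotensin II were not analysed here. Pontin is an AAA+ ATPase of chromatin remodelling complexes, and the comparison asks whether more of it in cardiomyocytes goes with other transcript levels in the stressed heart.

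With each heartbeat, a small entry of calcium through the surface membrane opens the release channels of the sarcoplasmic reticulum, the internal calcium store of the muscle cell, and the released calcium triggers contraction. Relaxation follows when the pump of the store takes calcium back up and an exchanger in the surface membrane removes the rest from the cell. The genes of this cycle are highly transcribed in working myocardium, and reduced pump activity and leaky release channels are well-known features of failing hearts.

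None of the 10 genes passed the test between genotypes after adjustment, where 0% of all tested genes did (edgeR's quasi-likelihood test, adjusted p = 0.999 for each of the 10). At an unadjusted p under 0.05 edgeR listed 285 genes of the whole table. After adjustment DESeq2 called 1 gene and limma-voom with quality weights 3, and none of these adjusted calls was among the 10. Slc8a1, the sodium-calcium exchanger that removes calcium from the cell, was the one of the 10 whose groups did not overlap. All 3 Pontin cTG hearts lay below all 3 WT hearts, as in 3.63% of all tested genes, where 4.7% had them above. It was also the one at an unadjusted p under 0.05, where edgeR placed 1.03% of tested genes lower and 1.02% higher. The levels of 8 genes were nominally lower and those of Jph2 and Hrc nominally higher in Pontin cTG, with a median log2 fold change of -0.11 against 0.0013 over all tested genes. One heart weighed heavily on these values: all 10 genes had their lowest normalised count in Pontin cTG 2, and without this library 4 were lower and 6 higher, with a median of 0.037. In heart tissue of mixed cell types, fewer cardiomyocytes and less RNA of a gene per cardiomyocyte cannot be told apart.

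The WT libraries held 12436822 to 13194038 counts in all, and the Pontin cTG libraries 14584102 to 16888124. Pontin cTG 2 stood apart from the others, at 50.85 on the first principal component (48.6% of the variance) where the other 5 libraries lay between -23.06 and 16.16. The study's methods mention that an outlier on principal components was left out, without naming it or its experiment, and all 6 libraries were kept here. Normalised counts of Ruvbl1, the mouse gene for Pontin, averaged 217.9 ± 2.72 in WT against 246.6 ± 5.79 in Pontin cTG (SD, n = 3), with the groups apart but a log2 fold change of only 0.18 (SE 0.12, adjusted p = 0.999). Since the transgene is human and its reads may not be counted for the mouse gene, this is a weak check of the labels. Cardiomyocyte markers were abundant, with a summed normalised count of 6 genes, such as Myh6 and Tnnt2, between 662700 and 768300 in WT hearts, and between 665100 and 743400 in Pontin cTG hearts.

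Upstream sequence was looked at for short letter strings known from cardiac promoters, because these genes were low together in one heart. A RefSeq start site on GRCm38.p6 was matched for 7 of the 10 genes, and the 250 bases before it were searched on both strands. The GATA string AGATAA was found upstream of Pln and Slc8a1 and in 9.99% of all 32851 promoters. The AT-rich string TATTTTTA stood upstream of Casq2 and Slc8a1, against 2.45% of all promoters, and TATAAA upstream of Pln, against 12.4%. CATTCC, the M-CAT string, was in none of the 7 and in 12.6% of all promoters, and GGGCGG, the GC box, was in those of Jph2, Camk2d and Hrc and in 32.7% of all. The sequences of the 3 genes with GATA, AT-rich or TATA strings are shown from 5′ to 3′ on the strand of the gene, with the matches on either strand in capitals; no 2 matches overlap. They are Slc8a1 (chr17:81738388-81738637, minus strand), Pln (chr10:53337436-53337685, plus strand) and Casq2 (chr3:102086165-102086414, plus strand).
Slc8a1: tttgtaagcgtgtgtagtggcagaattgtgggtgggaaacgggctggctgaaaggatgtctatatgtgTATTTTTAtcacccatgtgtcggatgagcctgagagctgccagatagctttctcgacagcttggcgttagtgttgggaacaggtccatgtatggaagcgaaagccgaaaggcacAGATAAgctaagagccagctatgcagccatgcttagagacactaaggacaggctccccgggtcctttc
Pln: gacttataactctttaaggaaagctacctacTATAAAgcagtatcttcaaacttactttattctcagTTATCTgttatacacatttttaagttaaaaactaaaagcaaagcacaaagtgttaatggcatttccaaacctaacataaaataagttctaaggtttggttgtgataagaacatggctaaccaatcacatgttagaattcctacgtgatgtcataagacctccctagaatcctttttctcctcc
Casq2: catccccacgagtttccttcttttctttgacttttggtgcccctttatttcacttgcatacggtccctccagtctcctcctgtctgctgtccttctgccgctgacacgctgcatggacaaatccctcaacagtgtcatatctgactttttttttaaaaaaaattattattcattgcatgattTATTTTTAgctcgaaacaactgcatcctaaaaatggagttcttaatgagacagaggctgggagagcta
The matches describe letters of these windows and nothing more.

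Levels were compared between genes as RPKM, that is, counts scaled to the table's gene length and the library total, averaged over the 6 libraries. Atp2a2, which encodes the calcium pump SERCA2, was highest with 1988 (range over libraries 1234 to 2182). Its inhibitor Pln, phospholamban, followed with 610.9 (546.1 to 693.8). The luminal calcium buffers Casq2 and Hrc had 412.5 (374.7 to 438.3) and 295.4 (274.5 to 334.7). Jph2, which ties the store to the T-tubule membrane, had 135.2 (103.8 to 158.1). The release channel Ryr2 had 48.1 (28.8 to 59.5) and its anchor Trdn 37.9 (28.5 to 46.4), and the ranges of these neighbours overlapped, unlike those of all other neighbours in this order. Slc8a1 with 21.5 (15.9 to 27.9), Asph with 14.3 (11.9 to 14.99) and Camk2d with 7.39 (6.25 to 8.01) came last. The table's length sums all exons of a gene, which are many for genes with several isoforms. Per kilobase of the longest coding transcript in GENCODE M21, the first 7 kept their order, but Asph (34.5) and Camk2d (30.1) then came before Slc8a1 (21.9).

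**Figure D1:**
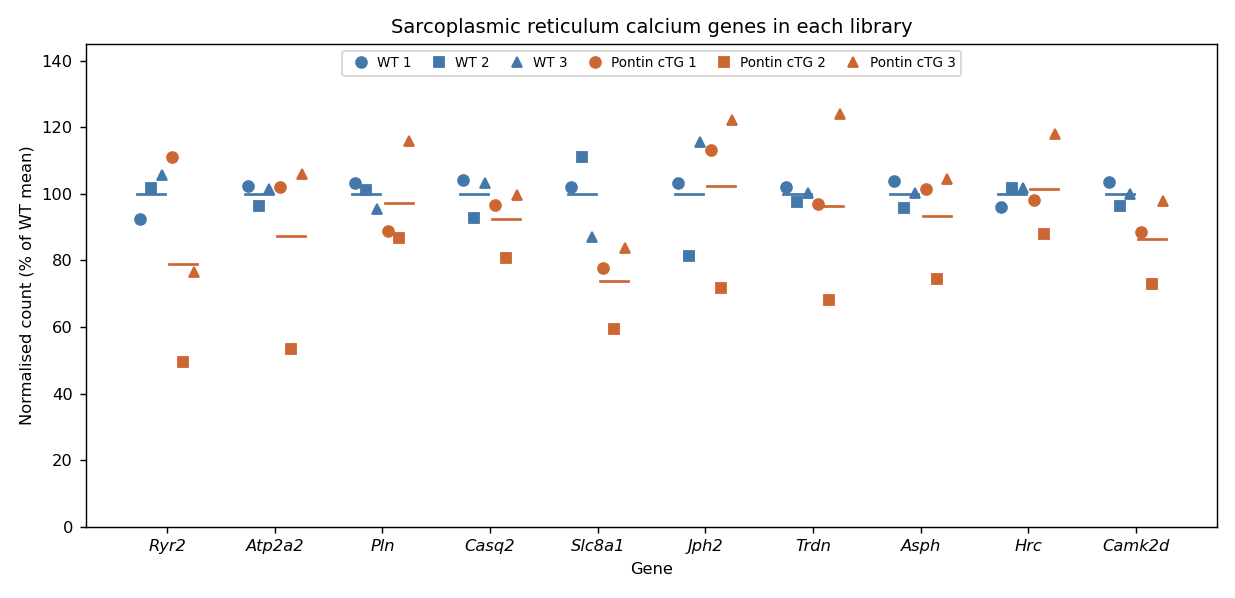
Normalised counts of the 10 genes in each library, as a percentage of the WT mean of the gene; blue symbols are WT and orange symbols Pontin cTG hearts, the shape gives the replicate number, and short lines are group means (n = 3). The orange square, Pontin cTG 2, is the lowest point of every gene, and only Slc8a1 has all orange points below all blue ones.

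Ryr2 (GRCm38 chromosome 13, 11553102 to 12106945, minus strand) encodes the cardiac ryanodine receptor, the channel through which the store releases calcium. Its normalised counts were 20300, 22340 and 23230 in WT 1 to 3 and 24380, 10840 and 16790 in Pontin cTG 1 to 3. Pontin cTG 1 was thus the highest of all libraries and Pontin cTG 2 the lowest, at 50.6% of the mean of the other 5. The means were 21960 ± 1505 and 17340 ± 6786 (SD, n = 3), and the log2 fold change was -0.34 (SE 0.26, 95% CI -0.93 to 0.24). It was -0.093 without Pontin cTG 2, -0.059 with limma-voom quality weights, and -0.66 without Pontin cTG 1, where the p of edgeR was 0.0154 before and 0.879 after adjustment.

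Jph2, Trdn and Asph belong to the junction at which the channel faces the T-tubule. Jph2 (chromosome 2, 163336242 to 163397993, minus strand) encodes junctophilin 2 and had normalised counts of 8319, 6552 and 9319 in the WT hearts, against 9136, 5779 and 9843 in Pontin cTG. The replicates 2 were the lowest of both groups, the groups overlapped, and the log2 fold change was 0.033 (SE 0.22, 95% CI -0.47 to 0.54), or 0.24 without Pontin cTG 2. Trdn (chromosome 10, 33080554 to 33476709, plus strand) encodes triadin, which links the channel to calsequestrin. It varied little in WT, with 5222, 4993 and 5135, and widely in Pontin cTG, with 4966, 3482 and 6350, which were the lowest and the highest of all 6 libraries. The SD was 116 in WT and 1434 in Pontin cTG, with a log2 fold change of -0.053 (SE 0.21, 95% CI -0.53 to 0.42). Asph (chromosome 4, 9448069 to 9669344, minus strand) yields junctin, a further partner of the channel, but also the enzyme aspartate β-hydroxylase, and counts per gene do not separate these products. GENCODE M21 lists 15 protein-coding transcripts of it. Its counts were 3507, 3237 and 3388 in WT and 3423, 2510 and 3527 in Pontin cTG, so that Pontin cTG 2 lay below and Pontin cTG 3 just above all WT values (log2 fold change -0.099, SE 0.16, 95% CI -0.47 to 0.27).

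Casq2 and Hrc encode proteins inside the store. Casq2 (chromosome 3, 102086415 to 102146514, plus strand), cardiac calsequestrin, binds calcium inside the store. Its counts were 17310, 15380 and 17120 in WT and 16020, 13410 and 16520 in Pontin cTG. Pontin cTG 1 and 3 lay between the WT values and Pontin cTG 2 below them, and the log2 fold change was -0.12 (SE 0.14, 95% CI -0.44 to 0.21). Hrc (chromosome 7, 45335290 to 45338974, plus strand) encodes the histidine-rich calcium binding protein, which binds calcium in the store and interacts with triadin and the pump. It had 10230, 10840 and 10840 counts in WT and 10440, 9350 and 12560 in Pontin cTG, where replicates 2 and 3 were the lowest and highest of all. The means of 10640 ± 351 and 10790 ± 1634 were nearly equal, with a log2 fold change of 0.020 (SE 0.15, 95% CI -0.32 to 0.36).

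Atp2a2 (chromosome 5, 122453513 to 122502225, minus strand) was the ninth most abundant gene of the whole table and contributed 64.4% to 65.8% of the counts of the 10 genes in 5 libraries, but 57.6% in Pontin cTG 2. Its normalised counts were 187800, 176500 and 185800 in WT and 187300, 98170 and 194100 in Pontin cTG. These 5 libraries lay close together, and Pontin cTG 2 stood at 52.7% of their mean. The log2 fold change of -0.20 (SE 0.23, 95% CI -0.73 to 0.33) became 0.057 without that library. Pln (chromosome 10, 53337667 to 53345987, plus strand), whose product slows the pump until it is phosphorylated, had 24980, 24420 and 23100 counts in WT and 21460, 20990 and 28000 in Pontin cTG. Pontin cTG 3 was above and the other 2 Pontin cTG hearts below all WT hearts, with a log2 fold change of -0.042 (SE 0.15, 95% CI -0.39 to 0.31).

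Because phospholamban acts on the pump, the ratio of their counts was taken within each library, which needs no scaling for library size. Pln reached 13.3%, 13.8% and 12.4% of the Atp2a2 counts in WT, and 11.5%, 21.4% and 14.4% in Pontin cTG. Pontin cTG 2 had by far the highest ratio, while Pontin cTG 1 had the lowest. The log2 ratio differed by 0.21 between the group means (-2.92 ± 0.078 in WT, -2.72 ± 0.46 in Pontin cTG; SD, n = 3; exact two-sided permutation p = 0.7, where 0.1 is the smallest p that 3 against 3 allows), and by -0.036 without Pontin cTG 2. The counts of the exchanger Slc8a1 were 3.57%, 4.14% and 3.08% of those of Atp2a2 in WT and 2.73%, 3.98% and 2.84% in Pontin cTG. Here Pontin cTG 2 lay within the WT values and the other 2 Pontin cTG hearts below them, with a difference of -0.19 on the log2 scale (exact two-sided permutation p = 0.4). It was -0.080 without WT 2, -0.086 without Pontin cTG 1 and -0.36 without Pontin cTG 2. The trend with gene length described below does not cancel in such ratios, and they were not corrected for it. The lengths are 2759 bases for Pln, 6081 for Atp2a2 and 18807 for Slc8a1.

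**Figure D2:**
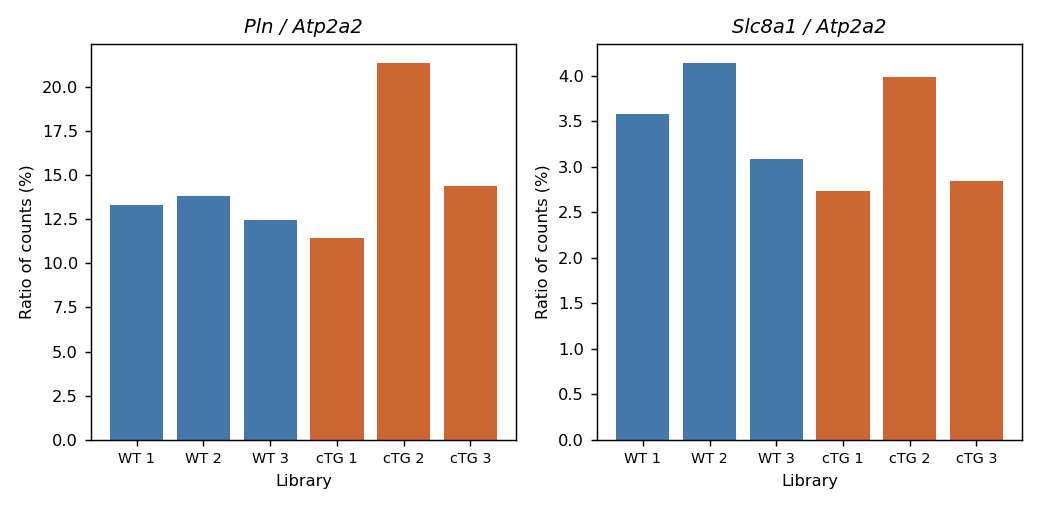
Counts of Pln (left) and Slc8a1 (right) as a percentage of the Atp2a2 counts in each library, with WT in blue and Pontin cTG in orange; each bar is 1 heart and both axes start at 0. The Pln ratio lies between 11.5% and 14.4% in 5 hearts and at 21.4% in Pontin cTG 2, and the Slc8a1 ratio of this heart lies within the WT values.

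Slc8a1 (chromosome 17, 81373105 to 81738377, minus strand), the exchanger NCX1, showed the largest log2 fold change of the 10. The WT hearts had normalised counts of 6710, 7308 and 5722, and the Pontin cTG hearts 5120, 3910 and 5518. The groups did not overlap, although the highest Pontin cTG heart and the lowest WT heart, 5518 and 5722, were close. Of all tested genes, 3.63% had all Pontin cTG hearts below all WT hearts and 4.7% had them above. The means were 6580 ± 801 in WT and 4849 ± 837 in Pontin cTG (SD, n = 3), a difference of -26.3% or a log2 fold change of -0.44 (SE 0.17, 95% CI -0.84 to -0.045, exact two-sided permutation p = 0.1). The unadjusted p was 0.0330 in edgeR and 0.0157 in DESeq2, and the adjusted p was 0.999 in edgeR. At an unadjusted p under 0.05, edgeR placed 1.03% of tested genes lower and 1.02% higher in Pontin cTG, and DESeq2 placed 0.785% lower. Slc8a1 was the only one of the 10 genes among them. It belongs to the 287 tested genes of at least 16 kb, of which edgeR placed 3.83% lower and 0 higher at this threshold. Slc8a1 was lower in Pontin cTG under all 16 alternative settings, with log2 fold changes from -0.54 to -0.25 and adjusted p from 0.855 to 1.0. This direction is no independent support. With these normalised counts not overlapping, leaving out 1 library cannot turn the order of the means, and the other settings refit the same libraries. The unadjusted p of edgeR exceeded 0.05 without WT 1 (0.0892), without WT 2 (0.116), without Pontin cTG 1 (0.0506) and with the gene-length offset described below (0.159).

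Camk2d (chromosome 3, 126596302 to 126846326, plus strand) encodes the δ isoform of calcium/calmodulin-dependent kinase II, which phosphorylates the release channel and phospholamban. Its counts were 2617, 2434 and 2524 in WT and 2235, 1840 and 2470 in Pontin cTG. Pontin cTG 3 lay within the WT values and the other 2 hearts below them, so the groups overlapped. The log2 fold change was -0.21 (SE 0.15, 95% CI -0.55 to 0.13, exact two-sided permutation p = 0.2).

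**Figure D3:**
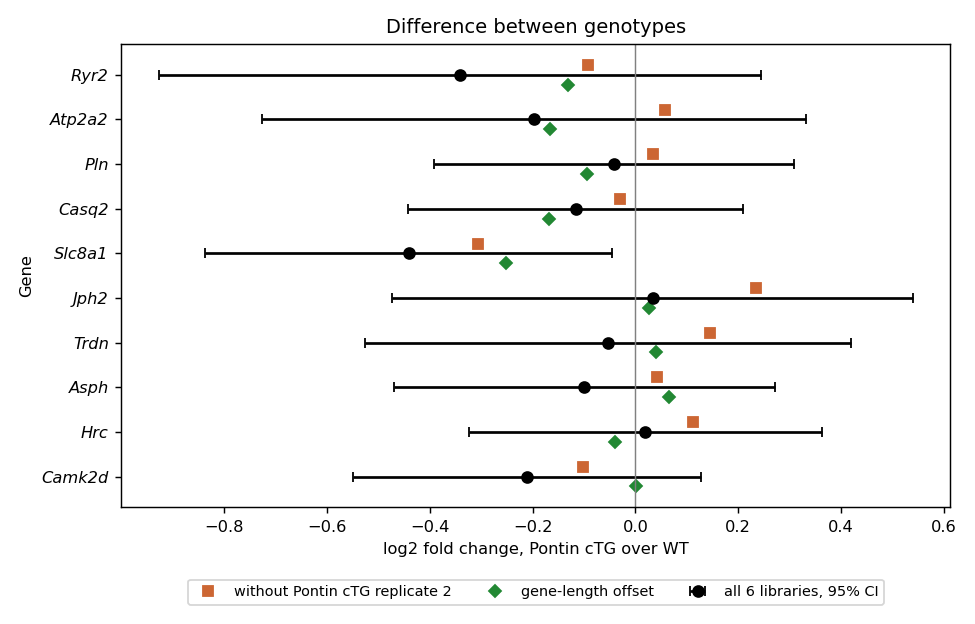
Log2 fold change of Pontin cTG over WT for the 10 genes. Black points with bars are edgeR estimates with 95% confidence intervals from 3 against 3 libraries, orange squares the estimates without Pontin cTG 2, and green diamonds those with a gene-length offset. Only the interval of Slc8a1, -0.84 to -0.045, leaves out 0, and its adjusted p is 0.999.

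Pontin cTG 2 was the lowest library for all 10 genes, against 30.7% of all tested genes (4259 of 13888) and 40.8% of the 287 genes of at least 16 kb. The shortfall was unequal. Ryr2 and Atp2a2 lay 49.4% and 47.3% below the mean of the other 5 libraries, Slc8a1, Trdn and Jph2 35.6%, 34.7% and 33.1%, Asph and Camk2d 26.5% and 25.1%, and Casq2, Hrc and Pln 18.6%, 14.9% and 13.9%. Together the 10 genes made up 1.30% of all counts in this heart and 1.96% to 2.02% in the others. Without this heart the log2 fold change was -0.31 for Slc8a1, -0.10 for Camk2d, -0.029 for Casq2, 0.033 for Pln, 0.041 for Asph, 0.11 for Hrc and 0.15 for Trdn. Divided by library size alone, 8 of the 10 remained lowest there, all but Pln and Hrc. The same heart held 7716 normalised counts of Nppa, the atrial natriuretic peptide that the stressed ventricle also makes, against 360.4 to 1842 in the others. The atrial markers Myl7 and Sln were at or near 0 in all libraries, with at most 6.73 normalised counts, whereas Myl4 was low but highest in Pontin cTG 2, with 43.67 against 8.81 to 28.31. The sum of the 4 atrial markers, nearly all of it Nppa, was 7759 there and 387.2 to 1866 elsewhere. Its summed fibroblast markers, 23590 over 5 genes, were about those of WT 2 with 23640 and above the 12410 to 15300 of the other 4 hearts, with Postn, a matrix protein of activated fibroblasts, at 4856 against 620.2 to 2432. The 4 endothelial markers summed to 14120 there and to 9864 to 11750 elsewhere, while the sums for cardiomyocytes (743400), smooth muscle, macrophages, red blood cells and skeletal muscle lay within the values of the other hearts. Among cardiomyocyte markers, Tnnt2 and Myl2 were highest in this heart, and Myh6, Tnni3, Actc1 and Mb were not. The skeletal muscle sum was nearly all Acta1, highest here with 20630, and Ckm, which was not, while Myh1 and Myh4 were 0 in all libraries. Of the genes on these 8 marker lists, 0 were at an unadjusted p under 0.05 between genotypes. The part of these differences in the low calcium handling genes was not tested.

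Differences between genotypes also moved with gene length. Over all tested genes, the median log2 fold change was 0.11 below 2 kb, 0.051 from 2 to 4 kb, -0.019 from 4 to 8 kb, -0.11 from 8 to 16 kb and -0.17 at 16 kb and above. Pln, Casq2 and Hrc lie in the second class, Atp2a2 and Jph2 in the third, Trdn in the fourth, and Ryr2, Slc8a1, Asph and Camk2d in the last. Across genes, the deviation of a library from the mean had a Spearman correlation with length of 0.11 to 0.185 in WT and of 0.0838, -0.205 and -0.156 in Pontin cTG 1 to 3. These are descriptions across genes, which are not independent replicates. With an offset that levels the trend with length in each library, the log2 fold change was -0.25 for Slc8a1, -0.13 for Ryr2, 0.065 for Asph and 0.0016 for Camk2d. These long genes moved up, as did Trdn (0.040) and Atp2a2 (-0.17). The short genes moved down, to -0.17 for Casq2, -0.095 for Pln and -0.040 for Hrc, and Jph2 stayed near its value (0.027). The median of the 10 genes was -0.068.

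**Figure D4:**
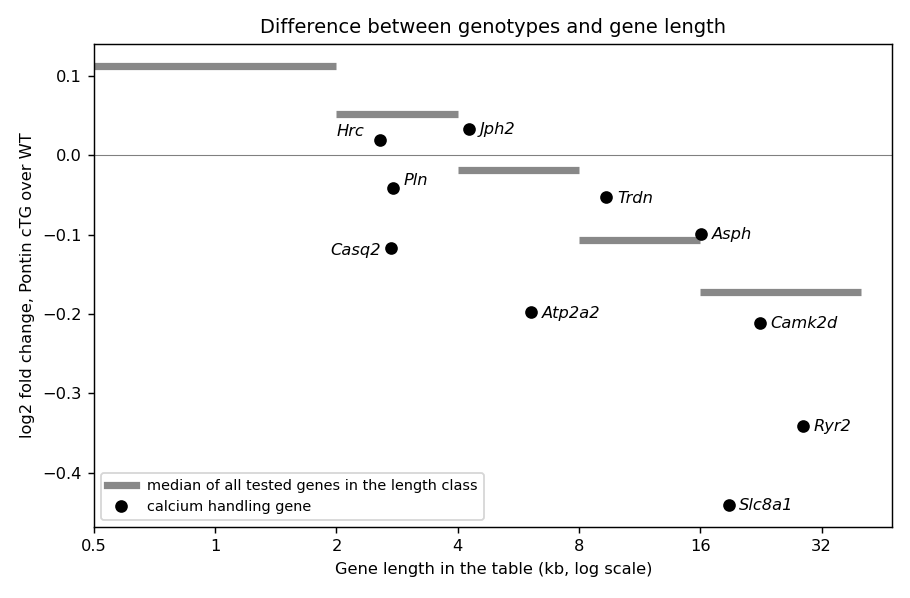
Log2 fold change of Pontin cTG over WT against the gene length given in the table (log scale). Grey bars are medians of all tested genes in 5 length classes, of which the first has no lower and the last no upper limit, and black points are the 10 calcium handling genes. The medians go from 0.11 in the shortest to -0.17 in the longest class, and 7 of the 10 points lie below the median of their class, all but Jph2, Trdn and Asph.

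A wider list of 50 calcium handling genes was read in the same way, by role. Of these, 49 were in the table under the names used and 39 were tested. None passed the adjusted test, 14 were nominally higher and 25 lower, against 6976 and 6912 of all tested genes. All Pontin cTG hearts were above all WT hearts for 3 of the 39 and below for 0, where 4.7% of all tested genes were above and 3.63% below. The median log2 fold change was -0.061 (0.016 without Pontin cTG 2). The pump Atp2a1 and the pump inhibitor Sln, typical of fast skeletal muscle and atrium, and the channel Ryr1 of skeletal muscle were among the 10 genes too low to test.

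Among 10 partners of the release channel, 6 were nominally higher and 4 lower. They ran from Itpr1, a release channel gated by inositol trisphosphate, at -0.14 (SE 0.14) to S100a1, a calcium sensor that binds the ryanodine receptor and the pump, at 0.28 (SE 0.16). S100a1 averaged 4522 ± 267 in WT against 5509 ± 994 in Pontin cTG (normalised counts, SD, n = 3), where Pontin cTG 2 was highest with 6618, and its log2 fold change was 0.13 without that heart and 0.16 with the gene-length offset. The 9 genes around the pump ran from Ppp1r3a, a glycogen-targeting subunit of protein phosphatase 1, at -0.39 (SE 0.32) to Ppp1r1a, an inhibitor of the same phosphatase, at 0.48 (SE 0.45), the latter from only 11.1 to 33.2 normalised counts and at 0.16 without Pontin cTG 1 and 0.82 without Pontin cTG 2. Ppp1r3a stood at 923.0 in Pontin cTG 2 and between 2174 and 2713 in the other hearts, and its log2 fold change was -0.054 without that heart and -0.71 without Pontin cTG 1. Hax1, a partner of phospholamban, had its groups apart, at up to 251.3 in WT and at least 251.9 in Pontin cTG (log2 fold change 0.23, SE 0.14, or 0.13 with the gene-length offset and 0.15 without Pontin cTG 2).

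All 5 further store genes were nominally lower, from Casq1, the calsequestrin of fast skeletal muscle, at -0.36 (SE 0.34) to the counter-ion channel Tmem38a at -0.0049 (SE 0.17). Casq1 rested on WT 2, which had 470.0 normalised counts against 162.7 to 273.4 in the other hearts. At the junction, Cmya5, a large scaffold protein of the dyad, was lowest at -0.20 (SE 0.22), and the membrane-shaping Bin1 highest at 0.17 (SE 0.23). Cav3, the muscle caveolin, had its groups apart, at up to 856.3 in WT and at least 862.1 in Pontin cTG (log2 fold change 0.16, SE 0.13, or 0.058 with the gene-length offset and 0.075 without Pontin cTG 2).

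Of 7 genes for calcium entry and extrusion at the surface, 6 were nominally lower. Cacnb2, the β subunit that brings the L-type calcium channel to the membrane, had normalised counts of 1033, 1088 and 894.3 in the WT hearts, against 749.8, 701.3 and 907.8 in Pontin cTG. Pontin cTG 3 lay just above WT 3, so the groups overlapped, with a log2 fold change of -0.35 (SE 0.15). For Cacnb2 edgeR gave an unadjusted p = 0.0392 and an adjusted p = 0.999. It was the only 1 of the 39 under 0.05 before adjustment, where edgeR placed 1.03% of all tested genes lower and 1.02% higher. With the gene-length offset, without WT 1 and without WT 2, 0 genes of the wider list were at an unadjusted p under 0.05, and the log2 fold change of Cacnb2 was -0.21, -0.33 and -0.29. Other settings gave more. With limma-voom quality weights 1 was higher and 2 lower, beside 373 and 421 of 13888 genes. Without Pontin cTG 2 the wider list also had 1 higher and 2 lower, beside 287 and 399 of 13978 genes. Fxyd1, phospholemman, which regulates the sodium pump and the exchanger NCX1, was at 2401, 2347 and 2478 in WT and 2716, 3484 and 2639 in Pontin cTG. All Pontin cTG hearts were above all WT hearts, opposite to Slc8a1, with a log2 fold change of 0.29 (SE 0.15) that did not pass the adjusted test and was 0.15 without Pontin cTG 2. The other isoforms of calcium/calmodulin-dependent kinase II were nominally lower, as Camk2d was, from -0.24 (SE 0.22) for Camk2b to -0.055 (SE 0.19) for Camk2a.

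Likeness between genes was measured as the root mean square difference of their log2 levels over the 6 libraries, each centred on its own mean, among 4250 well-expressed genes. Closest to Ryr2 were Vps13c (0.032), Lrba (0.066), Lnpep (0.076), Glg1 (0.083) and Ank3 (0.092), against a median of 0.374 for all compared genes. Closest to Atp2a2 were Bcl2l13 (0.027), Acsl1 (0.035), Alg10b (0.035), Nek7 (0.042) and Tgfbr3 (0.044), against a median of 0.312. Within the 10 genes, Casq2 and Asph (0.068), Casq2 and Camk2d (0.070), Asph and Camk2d (0.072) and Pln and Hrc (0.077) were the most alike, and Ryr2 and Pln (0.403) the least. These values are descriptions over 6 libraries, of which Pontin cTG 2 stood apart.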

How the data were processed

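RNA-seq of total heart RNA gave 1 library per mouse, 3 for each genotype. The authors deposited 1 table of whole-number counts per gene with no normalisation, with gene lengths. The methods name Trimmomatic, STAR, mm10 and Gencode M25, whereas the submitters' processing notes list fastp, HISAT2, featureCounts, DESeq2 and GRCm39, and which of these made the table is not settled. Positions of genes, taken from GENCODE M21 (GRCm38), serve only as annotation. Strandedness of the counting is not given in the sources used here.

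Low genes were removed with filterByExpr (minimum count 10). Genotypes were compared after TMM scaling by edgeR 4.0.16 (R 4.3.3) and its quasi-likelihood test, without covariates, and p-values were adjusted after Benjamini-Hochberg over 13888 genes. Standard errors are the log2 fold change divided by the square root of F. To obtain normalised counts, each count was divided by its library's TMM-scaled size, then multiplied by the geometric mean size of the 6 libraries. Alternatives used DESeq2 1.42.0, limma 3.58.1, other scalings and filters, a gene-length offset and each library left out. The code was tested on simulated data. These held no outlying library and no trend with gene length, so they say nothing on how either affects the results here. The common biological coefficient of variation was 0.197. All pairs of libraries within a group differed beyond sampling noise (chi-square per gene of at least 5.54). Nothing in the labels or methods ties same-numbered libraries to a litter or batch, and the deviations of same-numbered libraries had correlations of 0.0772, 0.432 and 0.193, so they were treated as unpaired. The 10 genes and all lists were chosen with earlier results of these data known. Named from the wider list were genes at an unadjusted p under 0.05, genes whose groups did not overlap, and the highest and lowest log2 fold change of each role.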

Additional observations from a re-analysis of the deposited data

How the results depend on the processing

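None of the 10 genes passed an adjusted p of 0.05 under any alternative, and none of the wider list did. Over all genes, 1 was called by DESeq2, 3 without a filter, 3 by limma-voom with quality weights, and 0 to 3 with each library left out (3 without Pontin cTG 2). With a replicate block, 0 genes and 0 of the 10 were called, the log2 fold change of Slc8a1 was -0.45 and the median of the 10 was -0.12. The counts of the 10 genes at an unadjusted p under 0.05, of those nominally lower and of those lowest in Pontin cTG 2 were added after the data had been seen. The first was 1, 0 with the gene-length offset and 0 to 1 with each library left out (0 without WT 1 or WT 2). The second was 8, and 4 to 10 with each library left out (4 without Pontin cTG 2). The median of the 10 was then -0.23 to 0.037, and the difference in the log2 ratio of Pln to Atp2a2 -0.036 to 0.41, and that of Slc8a1 to Atp2a2 -0.36 to -0.080. Directions turned with libraries left out for Atp2a2 (-0.36 to 0.057), Pln (-0.19 to 0.033), Jph2 (-0.11 to 0.24), Trdn (-0.28 to 0.15), Asph (-0.19 to 0.041) and Hrc (-0.10 to 0.11), and in the wider list for Casq1 (-0.58 to 0.16), Tmem38a (-0.093 to 0.15), Cmya5 (-0.36 to 0.018), Bin1 (-0.13 to 0.33), Camk2b (-0.36 to 0.028) and Camk2a (-0.16 to 0.14). With the gene-length offset, Trdn (0.040), Asph (0.065), Camk2d (0.0016), Itpr1 (0.047) and Camk2a (0.0054) turned positive and Hrc (-0.040) negative. With limma-voom, Trdn (0.022), Casq1 (0.16), Tmem38a (0.066), Cmya5 (0.013) and Camk2a (0.038) turned positive and Bin1 (-0.0038) negative. Tmem38a was 0.016 by library size alone and 0.0012 with at least 10 counts in every library. The cause of these turns was not tested. The precision rests on 1 library as well: the standard error of the log2 fold change of Atp2a2 was 0.23 with all 6 libraries and 0.095 without Pontin cTG 2.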
